A study of Mus musculus with 12 samples.

Results

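Transcripts of the translation initiation, elongation and termination factors were followed in Myc-CaP prostate cancer cells and in Myc-CaP tumors after treatment with YJ1206. Members were chosen by gene symbol: names that begin with Eif1 to Eif6, Eef1, Eef2, Etf1, Gspt1 or Gspt2. Of 88 matching names, 25 were left out: 13 pseudogenes with -ps in their name, 5 Eef1ak genes, 4 eIF2 kinases (Eif2ak) and 3 eIF4E-binding proteins (Eif4ebp). This left 63 genes, among 40077 listed for the cells and 34508 listed for the tumors, and 62 of them are in both tables. The exception, Eif2c5, a lincRNA in GENCODE vM21, is listed for the cells only, where it had 0 counts in all 6 libraries.

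The Myc-CaP line came from a single mouse prostate tumor in which a probasin promoter, active in prostate epithelium, drives human MYC. YJ1206 is an orally available degrader that directs CDK12 and CDK13, kinases of the transcribing RNA polymerase, to a ubiquitin ligase. Cultured Myc-CaP cells received DMSO or YJ1206 (1 μM, 24 hours), and subcutaneous Myc-CaP tumors grew in male FVB mice, hosts with an immune system of their own, that were given vehicle or YJ1206 by mouth (100 mg/kg, 3 times per week), with 3 libraries in each of the 4 groups. All groups share the MYC transgene of the line. The age of the mice and the length of tumor treatment are not given in the sources used here. The study's statistics section describes its data in general as independent biological replicates. No label ties these libraries to separate cultures or animals, so the p-values measure the spread between these libraries.

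Translation begins when eIF2 brings the initiator tRNA to the small ribosomal subunit, together with eIF1, eIF1A, eIF5 and the large scaffold eIF3. The eIF4 proteins recruit the mRNA through its cap and unwind it, eIF5B joins the large subunit, and eIF2B reloads eIF2 with GTP for the next round. Elongation then runs on eEF1A, which delivers aminoacyl-tRNA, on its exchange factor eEF1B, and on eEF2, which moves the ribosome along, until eRF1 (Etf1) and eRF3 (Gspt1) release the protein. MYC is known to drive genes of this machinery, and many of its mRNAs, that of eEF1A among them, start with a pyrimidine tract read by the mTOR pathway.

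The libraries held 13936902 to 26928365 counts on genes. Members are given as counts per 1000000 scaled by TMM within an experiment (CPM) where libraries of that experiment are compared, and as TPM, which corrects for gene length, where genes or all 4 groups are compared. The DMSO and YJ1206 cell libraries carry library numbers of separate series, so library series and treatment cannot be told apart. In the tumors, library 3 of each group lay between libraries 1 and 2: of the genes of at least 5 CPM whose libraries 1 and 2 differed by at least 1.5-fold, library 3 was between them for 1212 of 1243 in the vehicle group and for 550 of 567 in the YJ1206 group. In the cell groups the same count for library 3 was 26 of 33 and 33 of 49. Counts of called members in the tumors are therefore given with and without library 3, as are the changes of some members. Other tumor values and calls include library 3 unless stated. Whether library 3 came from a tumor of its own was not tested. Of the epithelial markers, Epcam had at most 4 counts in every library. The degrader's targets cannot check the labels, since it removes protein: Cdk12 mRNA rose on the log2 scale by 0.58 in cells and 0.35 in tumors, and Cdk13 changed by 0.027 and 0.063 (edgeR, adjusted p = 2.3e-14, 0.011, 0.55 and 0.47).

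Together the members made up 2.64% ± 0.0125 (SD, n = 3) of all TPM in DMSO cells, 2.51% ± 0.0107 in YJ1206 cells, 2.39% ± 0.0363 in vehicle tumors and 2.53% ± 0.0351 in YJ1206 tumors. Eef1a1, the main carrier of aminoacyl-tRNA to the ribosome, supplied the largest part by far. Its TPM was 9591, 9728 and 9516 in the DMSO libraries, 7351, 7421 and 7292 in YJ1206 cells, 10431, 10430 and 10366 in vehicle tumors and 12272, 11807 and 11926 in YJ1206 tumors. Eef1a1 thus held 36.5% ± 0.268 of the members' summed TPM in DMSO cells and 29.3% ± 0.133 in YJ1206 cells, against 43.6% ± 0.670 and 47.5% ± 0.300 in vehicle and YJ1206 tumors, and the groups did not overlap in either experiment. Eef1g (1456 ± 21.0 TPM) and Eef2 (1453 ± 15.4 TPM) came next in DMSO cells, and did not differ beyond their SD. Eif5a (986 ± 16.9 TPM), Eef1b2 (985 ± 27.4 TPM) and Eif4g2 (968 ± 22.7 TPM) followed, again within their SD of each other. Processed copies of Eef1a1 can share reads with it, so its level is uncertain to that extent.

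Some members were at or under 3 counts in every library of both cell groups: Eef1a2, Eif2s3y, Gspt2, Eif2c5 and the retrocopy-like genes Eif4a3l1 and Eif4a3l2. The last pair also stayed there in the tumors. After the filter on low counts, 55 members were tested in the cells, 58 in the tumors and 58 in the fit over all 12 libraries. At 3 counts a library of the cells reads 0.162 to 0.215 CPM and a library of the tumors 0.111 to 0.195 CPM, limits that cover counting error only.

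In cultured Myc-CaP cells most translation factor transcripts rose with YJ1206 by TMM, while on TPM more of them fell than rose, and on each scale most lay above the median gene. Of 55 members tested, 37 rose, 6 fell and 12 did not pass the test (edgeR's quasi-likelihood test, adjusted p under 0.05), where 37.8% of all 11826 genes tested rose and 38.3% fell. The median member changed by 0.27 on the log2 scale, and the median of all genes by -0.017. DMSO and YJ1206 libraries did not overlap in 45 of the 55, against 77.5% of all genes. The direction depends on how libraries are put on a common scale. With total counts the median of all genes moved to -0.20, and on the deposited TPM to -0.26. The members then split into 29 higher and 19 lower, and 20 higher and 24 lower of 56. Over all genes, 9190 of 11826 were called with total counts, 36.1% of them higher. On TPM 8255 of 11166 genes were called, 29.3% of them higher. The members' median stayed above that of all genes by 0.29, 0.29 and 0.27 under the 3 scales, with 44, 44 and 43 members above it. Under all of TMM, DESeq2's size factors in edgeR, total counts, TPM and DESeq2 itself, called every scale from here on, 20 members remained higher and 6 lower.

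**Figure D1:**
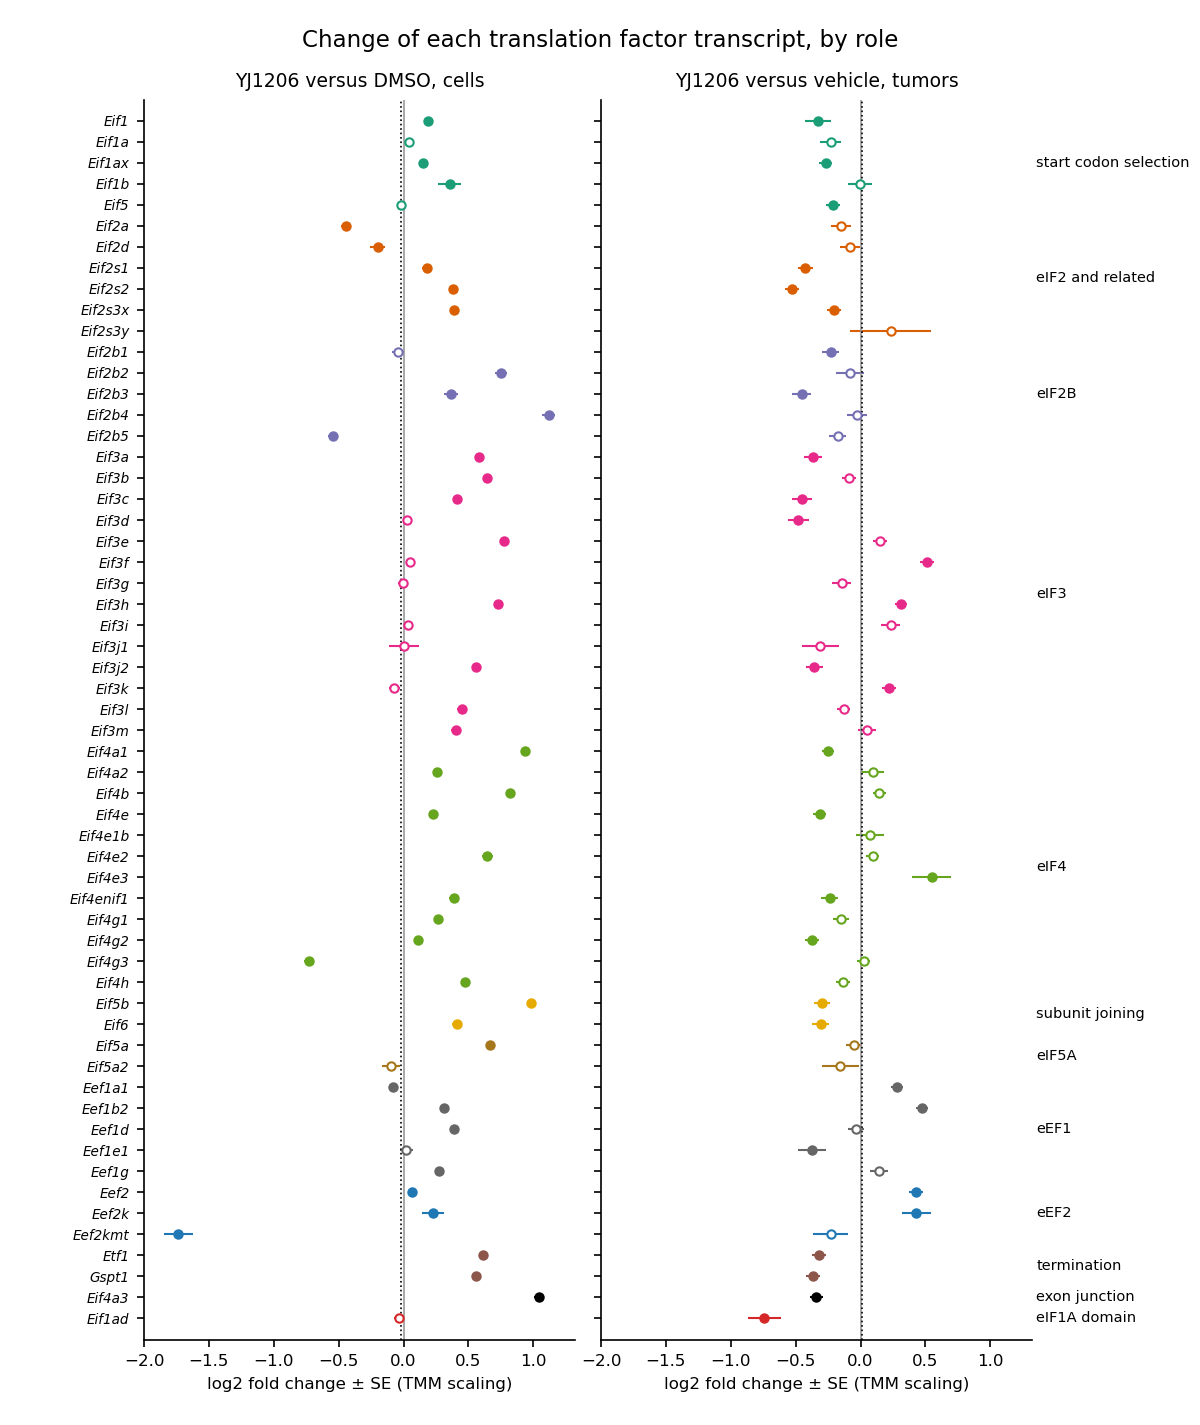
The log2 fold change of each tested member (points, ± SE, TMM scaling) in cells (left) and tumors (right), ordered by role; filled points passed an adjusted p of 0.05, the dotted line is the median of all genes tested. In cells most filled points lie right of the line, led by Eif2b4 at 1.12 and Eif4a3 at 1.04, whereas in tumors 23 of the 31 filled points lie left of it.

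Of 10 tested eIF4 genes, the cap and helicase factors, 9 rose and 1 fell in the cells by TMM. Over all genes the shares were 37.8% and 38.3%. Of the 9 eIF4 genes, 5 rose on every scale. Eif4a1 encodes the RNA helicase that clears the way for the scanning ribosome. It read 891, 887 and 877 CPM with DMSO and 1668, 1681 and 1723 CPM with YJ1206, a log2 fold change of 0.93 ± 0.022 (SE; adjusted p = 2.1e-23). Every YJ1206 library lay above every DMSO library, and the gene stayed higher on all scales. Eif4b, a cofactor of that helicase, rose from 884, 875 and 858 CPM to 1528, 1545 and 1552 CPM (0.82 ± 0.022), and Eif4h, another one, by 0.47 ± 0.03. Eif4a2, the helicase's close paralog, read 293, 276 and 279 CPM with DMSO and 335, 342 and 336 CPM with YJ1206, a smaller rise of 0.26 ± 0.03 that also held on every scale. The ratio of Eif4a1 to Eif4a2 in TPM, which no scaling of libraries can alter, was 3.63, 3.87 and 3.74 with DMSO and 5.12, 4.92 and 5.27 with YJ1206.

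The cap-binding proteins differed among themselves. Eif4e, which binds the cap, read 301, 298 and 310.5 CPM with DMSO and 353, 355 and 355 CPM with YJ1206, 0.22 higher on the log2 scale by TMM but -0.11 on TPM. Eif4e2, a relative that binds the cap and represses translation, rose from 86.7, 90.1 and 83.3 CPM to 127, 139 and 140.0 CPM (0.64 ± 0.043), on every scale. Eif4e1b and Eif4e3 had at most 11 counts in any cell library and were not tested there. Eif4enif1, which carries eIF4E into the nucleus, rose by 0.39, a rise that did not hold on every scale.

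The eIF4G scaffolds, which hold cap-binding protein, helicase and eIF3 together, moved apart. Eif4g1 read 1647, 1729 and 1700.3 CPM and 2051, 2034 and 2030.2 CPM with DMSO and with YJ1206, 0.27 higher by TMM and -0.032 on TPM. Eif4g2, a scaffold that lacks the eIF4E-binding part, read 2367, 2312 and 2329 CPM and 2533, 2534 and 2513 CPM, 0.11 higher by TMM but -0.073 on total counts and -0.19 on TPM. Eif4g3 fell from 178, 184 and 190.3 CPM to 114, 109 and 109.9 CPM, a log2 fold change of -0.73 ± 0.038 (adjusted p = 6.1e-16), on every scale and with no overlap. At 215 kb in GENCODE vM21 (GRCm38, chr4:137993022-138208508) Eif4g3 has the longest span of the 3 scaffolds. Across the 55 members the change in cells and the gene span had a Spearman rho of 0.099, a description over genes of shared libraries. The ratio of Eif4g3 to Eif4g1 was 0.0845, 0.0847 and 0.0883 in TPM with DMSO and 0.0452, 0.0420 and 0.0423 with YJ1206.

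The 5 subunits of eIF2B, the complex that recharges eIF2, changed in opposite directions in the cells. Eif2b4, the δ subunit, read 30.8, 32.8 and 31.9 CPM with DMSO and 68.3, 70.3 and 68.6 CPM with YJ1206, a log2 fold change of 1.12 ± 0.053 (adjusted p = 8.7e-17), the highest estimate of any member. Eif2b5, the catalytic ε subunit, read 126, 129 and 123 CPM with DMSO and 84.9, 87.3 and 87.7 CPM with YJ1206, and fell by 0.54 ± 0.039 on the log2 scale (adjusted p = 8.0e-13). Both kept their call on every scale. Eif2b2 (β) rose by 0.75 ± 0.046 on every scale, Eif2b3 (γ) read 40.3, 41.1 and 42.7 CPM and 52.2, 55.2 and 52.6 CPM and was 0.37 higher by TMM but -0.22 on TPM, and Eif2b1 (α) changed by -0.042 ± 0.048 without passing the test. The make-up of the subunit transcripts shifted accordingly: of the summed TPM of the 5 genes, Eif2b5 held 28.7, 29.4 and 28.4% with DMSO and 16.0, 16.4 and 16.8% with YJ1206, and Eif2b4 held 9.14, 10.1 and 9.46% and 17.8, 18.1 and 17.6%. The sum itself was 313 to 315 TPM with DMSO and 296 to 307 TPM with YJ1206.

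**Figure D2:**
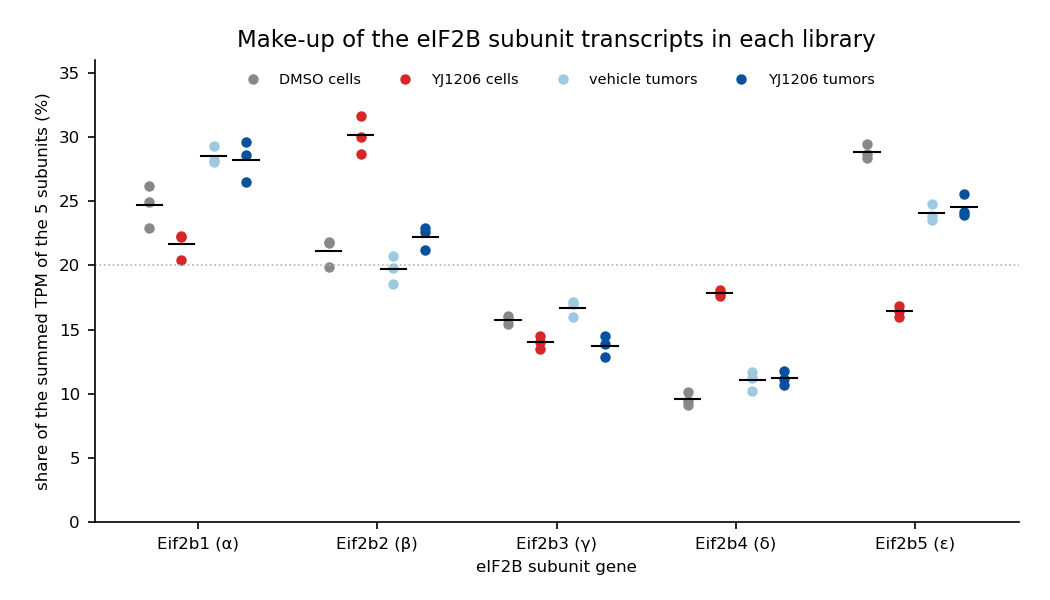
Share of each eIF2B subunit gene in the summed TPM of the 5 genes (%), with points for single libraries, short lines for the means of 3 and a dotted line at an equal share. In YJ1206 cells Eif2b4 and Eif2b2 lie above, and Eif2b5 below, all other groups, while in tumors the vehicle and YJ1206 points of Eif2b4 and Eif2b5 overlap.

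Transcripts of eIF2 itself and of its relatives split by kind. The 3 subunit genes of eIF2 were higher by TMM: Eif2s1 (α, the site of stress phosphorylation) by 0.18 ± 0.031, Eif2s2 (β), at 339, 319.8 and 323 CPM with DMSO and 424, 427 and 426 CPM with YJ1206, by 0.38 ± 0.028, and Eif2s3x (γ), at 529, 505 and 517 CPM and 683, 680.0 and 663 CPM, by 0.38 ± 0.025. On TPM these 3 values were -0.13, 0.072 and 0.091. Eif2a, an alternative carrier of initiator tRNA, fell from 132, 124 and 125 CPM to 93.2, 91.4 and 95.1 CPM (-0.44 ± 0.039), and Eif2d, which also binds initiator tRNA and recycles ribosomes, fell by 0.20 ± 0.057, both on every scale.

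Of the 14 eIF3 genes, the scaffold of the initiation complex, 8 rose and none fell in the cells. Over all genes the shares were 37.8% and 38.3%. The other 6 eIF3 genes did not pass the test. Those that rose were Eif3a (0.58 on the log2 scale), Eif3b (0.64), Eif3c (0.41), Eif3e (0.78), Eif3h (0.73), Eif3j2 (0.56), Eif3l (0.45) and Eif3m (0.40), and of these only Eif3m lost its call on another scale. Eif3e, the largest riser, read 199, 197 and 196 CPM with DMSO and 333, 332 and 348 CPM with YJ1206. The other 6 ranged from -0.071 (Eif3k) to 0.049 (Eif3f) by TMM. Eif3d, which can bind the cap of some mRNAs, read 217, 222 and 217 CPM with DMSO and 225, 221 and 223 CPM with YJ1206, and Eif3f read 179.5, 180.3 and 179.8 CPM and 186, 187 and 186 CPM. Their changes of 0.028 and 0.049 by TMM turned to -0.26 and -0.26 on TPM. Eif3j1 and Eif3j2 are near-identical copies whose reads can be split wrongly: Eif3j1 read 11.5, 10.2 and 13.4 CPM and 10.1, 13.0 and 12.2 CPM, with overlap, and Eif3j2 178, 176 and 177 CPM and 267, 261 and 254 CPM. Summed over the 14 genes, eIF3 transcripts stood at 3754 to 3838 TPM with DMSO and 4113 to 4162 TPM with YJ1206.

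Of the 5 start codon factors, 3 rose in the cells by TMM, none of them on every scale, and 37.8% of all genes rose. Eif1, which guards the choice of start codon, read 382, 379 and 374 CPM with DMSO and 427, 432 and 432 CPM with YJ1206, 0.19 higher by TMM but -0.00078 on total counts and -0.14 on TPM. Its paralog Eif1b read 14.9, 16.0 and 17.1 CPM and 19.2, 22.2 and 20.1 CPM (0.36 ± 0.088 by TMM). Of the eIF1A genes, Eif1ax read 249.6, 239 and 239.7 CPM and 276, 268 and 264 CPM, 0.15 higher by TMM but -0.036 on total counts and -0.15 on TPM, and Eif1a read 191, 178 and 187 CPM and 192, 186 and 196 CPM, which did not pass. Eif5, the GTPase activator of eIF2, changed by -0.021 ± 0.026 and also missed the test. Each pair of copies can share reads.

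Factors of subunit joining, elongation support and release followed. Eif5b, the GTPase that joins the large subunit, rose from 260.1, 263 and 263 CPM to 501, 519 and 532 CPM (0.98 ± 0.028; adjusted p = 2.0e-21), with no overlap and on every scale. Eif6, which keeps the large subunit apart until it is ready, rose by 0.41 ± 0.036. Eif5a, which helps the ribosome past difficult stretches and carries hypusine, read 641, 661 and 651 CPM with DMSO and 1027, 1015 and 1049.7 CPM with YJ1206 (0.66 ± 0.024), and its paralog Eif5a2 read 34.4, 29.3 and 33.1 CPM and 30.2, 32.0 and 28.3 CPM, with overlap. The release factors Etf1 and Gspt1 both rose, by 0.61 ± 0.025 and 0.56 ± 0.029. Etf1 read 440.4, 436 and 429 CPM with DMSO and 663, 676 and 651 CPM with YJ1206. Gspt1 read 384, 357 and 371 CPM and 545, 559 and 529 CPM. Within the pair the share of Etf1 in TPM was 46.9% ± 0.811 in DMSO and 48.2% ± 1.41 in YJ1206 cells. Eif4a3, which despite its name marks exon junctions after splicing, read 129, 135 and 135 CPM with DMSO and 264, 279 and 280.0 CPM with YJ1206, a rise of 1.04 ± 0.035 on every scale.

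The elongation factors moved in several directions in the cells. Eef1a1 read 8976, 9093 and 8811 CPM with DMSO and 8424, 8531 and 8485 CPM with YJ1206, a log2 fold change of -0.079 ± 0.017 by TMM and -0.39 on TPM, lower on every scale. The ratio of Eef1a1 to Eif4a1 in TPM was 10.0, 10.2 and 10.0 with DMSO and 5.05, 5.08 and 4.93 with YJ1206. Eef2, the translocase, read 2496, 2561 and 2511 CPM and 2613, 2602 and 2693 CPM, 0.063 higher by TMM but -0.12 on total counts and -0.24 on TPM. The subunits of the exchange factor eEF1B were higher by TMM: Eef1b2 (α) at 504, 496 and 499 CPM and 599, 627 and 632 CPM by 0.31, Eef1g (γ) at 1417, 1460.2 and 1422 CPM and 1744, 1726 and 1727 CPM by 0.27, and Eef1d (δ) by 0.39, which became -0.0088, -0.038 and 0.042 on TPM. Eef2k, the kinase that halts eEF2, read 15.1, 16.2 and 16.8 CPM and 19.3, 18.2 and 18.6 CPM (0.22 ± 0.086; adjusted p = 0.021), and the rise was lost on total counts, on TPM (0.12), with DESeq2, and without library 1 of either cell group (adjusted p up to 0.0872). Eef2kmt, which methylates a lysine of eEF2, fell from 17.1, 20.0 and 16.9 CPM to 5.29, 5.50 and 5.38 CPM, a log2 fold change of -1.74 ± 0.11 (adjusted p = 1.4e-13), the largest fall of any member and far outside the spread of the libraries.

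In the tumors the balance was the other way. Of 58 members tested, 8 rose, 23 fell and 27 did not pass the test, where 11.9% of all 15558 genes tested rose and 14.9% fell. The median member changed by -0.15 on the log2 scale, and the median of all genes by 0.0091. On TPM, where calls over all genes shifted further to the lower side, 5 members rose and 24 fell of 59. Of all 14028 genes on TPM, 3623 were called, 33.8% of them higher. Vehicle and YJ1206 libraries did not overlap in 43 members, against 44.6% of all genes. On every scale 5 members remained higher and 21 lower. Libraries of a tumor group scattered more than those of a cell group (common biological coefficient of variation 0.139, and 0.0322 in the cells), and the calls rest on library 3. With libraries 1 and 2 only, edgeR called no member at adjusted p under 0.05, and 1 gene of all 15684. At an unadjusted p under 0.05 there were 22 of 58 members and 3068 of the 15684 genes. All 31 members called with library 3 kept their direction, and the members' median was -0.16. Between these fits the 31 members shifted by at most 0.0440 on the log2 scale. Their adjusted p in edgeR on the 4 libraries ran from 0.14 to 0.39. As library 3 often lay between libraries 1 and 2, leaving it out could move a group mean little. The kept directions and values are therefore no separate check of the calls. Leaving out single libraries gave 18 to 33 called members, the 18 without library 3 of the vehicle group and 19 without library 3 of the YJ1206 group.

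Markers of other cells were read in the tumors beside the members. The summed TPM of 6 leukocyte markers, none of which was at the floor in either tumor group, was 42.3 to 56.0 in vehicle and 58.1 to 70.0 in YJ1206 tumors. Of these, Itgam rose (0.63 on the log2 scale, adjusted p = 0.004), Adgre1 (0.49), Cd68 (0.41), Ptprc (0.24) and Cd79a (-0.63) did not pass, and Cd3e was too low to test. The epithelial keratin Krt8 stood at 60.3 to 75.5 TPM in vehicle and 73.6 to 80.7 TPM in YJ1206 tumors (0.26, adjusted p = 0.056). Krt8 is a single gene of a list whose low-count members did not all move with it. It does not measure the epithelial part of the tumors. Sums for 4 fibroblast markers (176 to 476 and 135 to 292) overlapped, and those for 3 endothelial markers were 37.7 to 38.9 and 39.4 to 46.3. The part of these cells in the members' changes was not tested. In bulk tissue, fewer cells of a type and less RNA per cell cannot be told apart.

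Of the 8 members that rose in the tumors, Eef1a1, Eef1b2 and Eef2 are elongation factors and Eef2k is the kinase of eEF2. Eef1a1 read 10227, 10688 and 10259 CPM in the vehicle libraries and 12732, 12579 and 12521 CPM in the YJ1206 libraries (0.28 ± 0.048; adjusted p = 0.0064). Eef1b2 read 558, 579 and 561 CPM and 783, 788 and 781 CPM (0.47 ± 0.047; adjusted p = 0.0013), and Eef2 2925, 3167 and 2946 CPM and 3987, 4102 and 4057 CPM (0.43 ± 0.054; adjusted p = 0.0025). All YJ1206 libraries of these 3 genes lay above all vehicle libraries, and the calls held on every scale and without each library in turn. With libraries 1 and 2 only, the 3 changes were 0.27, 0.47 and 0.41. Eef2k rose from 40.3, 30.2 and 35.0 CPM to 45.1, 47.1 and 49.9 CPM (0.43 ± 0.11), a call that was lost on TPM and without any 1 of 4 libraries (adjusted p up to 0.115). Eef1g, at 1151, 1082 and 1118 CPM and 1127, 1309.9 and 1262 CPM, overlapped and did not pass, and Eef1d changed by -0.036 ± 0.06 without passing. Eef1e1, a scaffold protein of the tRNA synthetase complex that shares the eEF1 name, fell by 0.37 ± 0.11. The ratio of Eef1a1 to Eif4a1 in TPM, which had gone down with YJ1206 in the cells, was 18.5, 18.5 and 18.1 in vehicle and 26.6, 27.0 and 26.1 in YJ1206 tumors.

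The eIF3 genes split in the tumors, 3 rising, 4 falling and 7 not passing, where 11.9% of all genes rose and 14.9% fell. Eif3f, one of the subunits with an MPN domain, rose from 172, 191 and 179 CPM to 258, 259 and 256 CPM (0.51 ± 0.056; adjusted p = 0.0017), second only to Eif4e3, a gene near 5 CPM. With libraries 1 and 2 only it changed by 0.51. Eif3h, its MPN partner, rose by 0.31 ± 0.049, and Eif3k by 0.22 ± 0.055, the latter not on every scale. Eif3d fell from 164, 135 and 159 CPM to 105, 112 and 111 CPM (-0.48 ± 0.082; adjusted p = 0.0062). Eif3a (-0.37), Eif3c (-0.45) and Eif3j2 (-0.36, at 131, 115 and 122 and 98.3, 93.5 and 95.5 CPM) fell too, while Eif3j1, at 20.1, 18.8 and 20.5 and 12.7, 16.8 and 18.4 CPM, did not pass. The TPM ratio of Eif3f to Eif3d was 0.757, 0.992 and 0.806 in the vehicle tumors and 1.67, 1.59 and 1.64 in the YJ1206 tumors, but 0.589, 0.573 and 0.597 and 0.579, 0.598 and 0.581 in DMSO and YJ1206 cells. The groups lay apart in the tumors and overlapped in the cells.

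Among the other initiation factors in tumors, decreases prevailed. Eif2s2 fell from 223, 211 and 219 CPM to 147, 158 and 149 CPM (-0.53 ± 0.054; adjusted p = 0.0014). Eif2s1 fell by 0.43 ± 0.057. Eif2s3x read 319, 329.7 and 326 CPM in vehicle and 279, 294 and 272 CPM in YJ1206 tumors (-0.21 ± 0.053), a call lost without library 3 of either group or library 1 of the YJ1206 group (adjusted p up to 0.121). All 3 subunit genes of eIF2 thus fell in the tumors. Eif2b3 fell from 37.2, 38.5 and 37.5 CPM to 26.0, 28.7 and 27.8 CPM (-0.46 ± 0.073; adjusted p = 0.005) and Eif2b1 (-0.23 ± 0.067) fell as well. Eif2b4, the largest riser of the cells, read 25.7, 24.2 and 26.0 CPM in vehicle and 23.8, 25.0 and 25.5 CPM in YJ1206 tumors, with overlap, and Eif2b5 read 76.3, 87.9 and 82.9 and 71.9, 72.9 and 73.9 CPM (-0.18 ± 0.067, not past the test). Eif2a, at 104, 123 and 109 and 104, 98.0 and 101 CPM, overlapped. The TPM ratio of Eif2b4 to Eif2b5 was 0.319, 0.343 and 0.333 in DMSO cells and 1.11, 1.10 and 1.04 in YJ1206 cells, against 0.470, 0.497 and 0.413 in vehicle and 0.488, 0.445 and 0.437 in YJ1206 tumors.

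Of the start codon factors, 3 of 5 fell in the tumors, where 14.9% of all genes fell. Eif1 read 457, 345 and 404 CPM in vehicle and 336, 308 and 317 CPM in YJ1206 tumors (-0.33 ± 0.1; adjusted p = 0.0497), a call lost on TPM and without any library but vehicle 2 (adjusted p up to 0.15). Eif1ax read 150.2, 145 and 148 and 126, 120.0 and 123 CPM (-0.27 ± 0.049), a call lost without library 3 of either group (adjusted p up to 0.0523), and Eif5 fell by 0.21 ± 0.055. Eif1a, at 161, 129 and 144 and 126, 123 and 121 CPM, and Eif1b, at 18.2, 17.6 and 16.9 and 16.7, 18.7 and 17.1 CPM, did not pass. Eif1ad, a nuclear protein that carries an eIF1A-like domain and is not itself a known initiation factor, had the largest fall of the members, from 91.3, 64.1 and 80.4 CPM to 44.3, 49.2 and 47.5 CPM (-0.74 ± 0.13; adjusted p = 0.0065), and its vehicle libraries were also spread widely.

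The eIF4 genes fell in 4 of 12 cases and rose in 1, where 14.9% of all genes fell and 11.9% rose. Eif4a1 read 553, 574 and 565 CPM in vehicle and 477, 465 and 479 CPM in YJ1206 tumors (-0.25 ± 0.048), a call lost without vehicle library 3 (adjusted p = 0.0562). Eif4a2 read 273, 228 and 271 and 296, 258 and 270.5 CPM, with overlap. The TPM ratio of Eif4a1 to Eif4a2 was 2.16, 2.89 and 2.23 in vehicle and 1.75, 1.96 and 1.89 in YJ1206 tumors, so the groups lay apart, in the direction opposite to the cells. Eif4e fell from 182, 179 and 185 CPM to 143, 149 and 146 CPM (-0.32 ± 0.049), and Eif4g2 from 1539, 1462 and 1497 CPM to 1196, 1133 and 1139 CPM (-0.38 ± 0.052). Eif4enif1 fell by 0.24 ± 0.063, not on every scale. Eif4g1, at 1038, 1135 and 1058 and 1015, 937 and 958 CPM, and Eif4g3, at 288, 299 and 297 and 305, 293 and 301 CPM, did not pass, nor did Eif4e2, at 81.8, 81.0 and 80.3 and 87.6, 83.9 and 87.7 CPM. Eif4e3, an unusual cap-binding protein, rose from 3.78, 3.15 and 3.94 CPM to 4.97, 5.14 and 5.72 CPM (0.55 ± 0.15; adjusted p = 0.036), a low-level gene whose call was lost with DESeq2, on TPM and without any 1 library (adjusted p up to 0.141).

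The tested factors of subunit joining and termination all fell in the tumors: Eif5b (-0.30 ± 0.064), Eif6 (-0.31 ± 0.064), Etf1 (-0.32 ± 0.053) and Gspt1 (-0.37 ± 0.052). Over all genes 14.9% fell. Etf1 read 279, 256 and 266 CPM in vehicle and 213, 216 and 212 CPM in YJ1206 tumors, and Gspt1 read 216, 230.0 and 222 and 176, 168 and 174 CPM. The groups were apart for both, as they were in the cells, in the other direction. Eif5b read 176, 168 and 182 and 150.1, 134 and 146 CPM, and its call was lost without library 3 of either group (adjusted p up to 0.0739). Eif4a3 read 90.9, 92.5 and 89.1 and 71.9, 71.1 and 72.3 CPM (-0.34 ± 0.052). Eif5a, at 388, 447 and 417 and 407, 403 and 398 CPM, and Eif5a2, at 7.61, 10.1 and 9.62 and 8.29, 8.67 and 7.57 CPM, overlapped. Eef2kmt, which fell most in the cells, read 19.5, 19.9 and 19.8 and 13.6, 19.7 and 17.1 CPM in the tumors and did not pass.

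**Figure D3:**
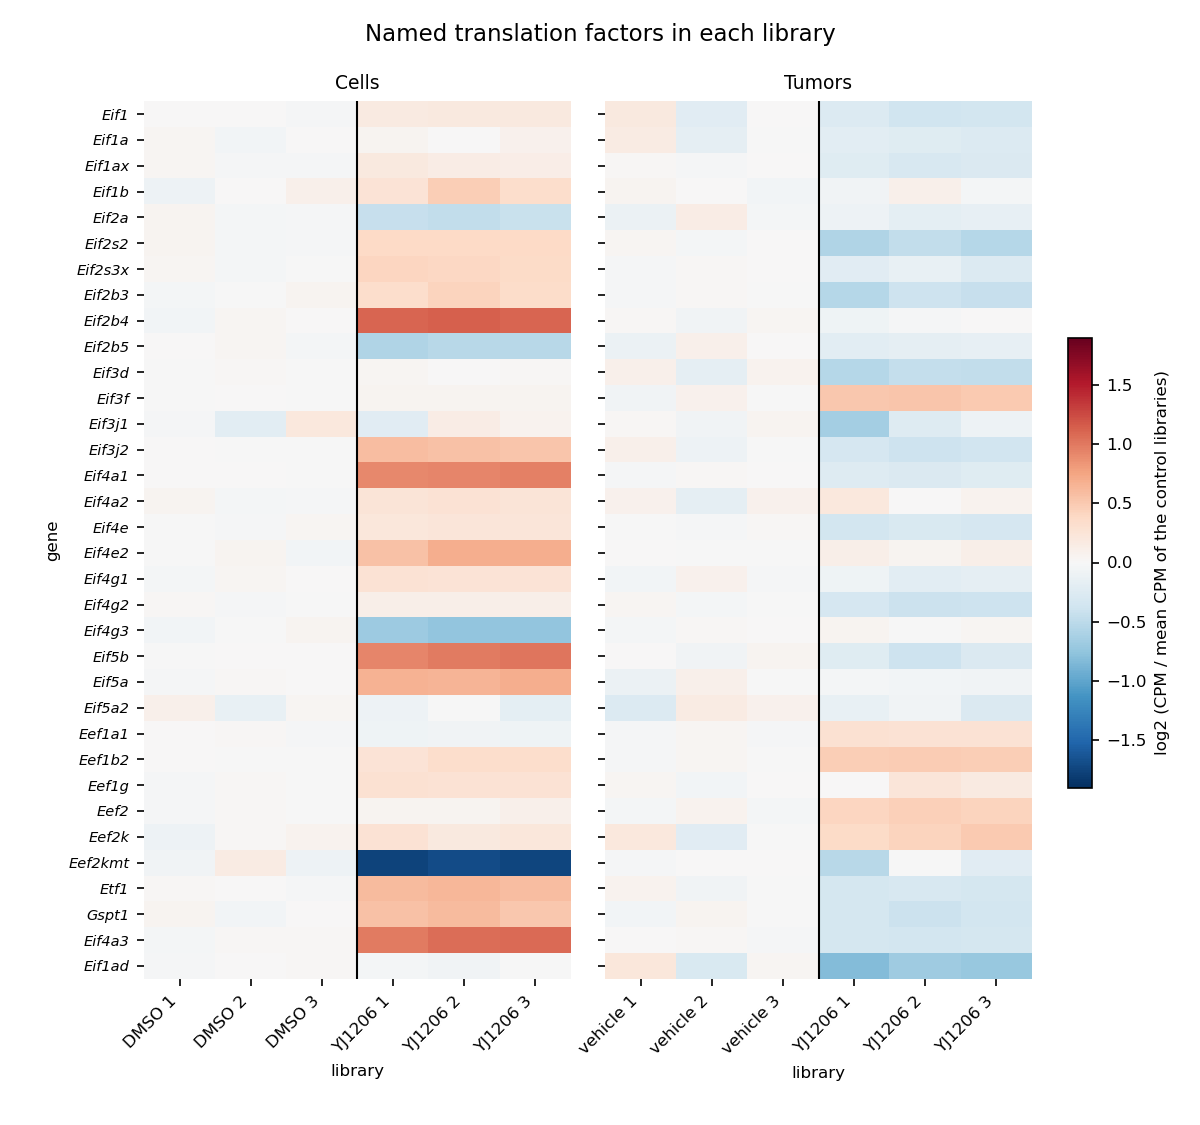
Named members by library, as log2 of CPM over the mean CPM of the 3 control libraries of the same experiment (DMSO or vehicle), red above and blue below it. In the cells the 3 libraries of a group look alike, whereas the vehicle tumors show library 1 and library 2 on opposite sides for genes such as Eif1ad and Eif1.

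The effect of YJ1206 differed between tumors and cells for most members. In the fit over all 12 libraries, the change in tumors was lower than that in cells for 38 of 58 members and higher for 9, where 26% of all 15423 genes were lower and 20.8% higher. The median difference was -0.49 on the log2 scale, with -0.011 over all genes. On every scale 28 of the 38 and 8 of the 9 remained. Total counts and TPM moved the median of all genes to 0.20 and 0.18, with 32 members lower and 12 higher, and 29 lower and 11 higher of 59. Of all genes, 7492 of 15423 were called with total counts, 61.5% of them higher, and 6687 of 12941 on TPM, 63.7% of them higher. With tumor libraries 1 and 2 only, 35 members were lower and 7 higher, where 6013 of 15506 genes were called, 41.7% of them higher. Of the members called in both experiments, 18 rose in cells and fell in tumors, 1 (Eef1a1) fell in cells and rose in tumors, 4 rose in both (Eef1b2, Eef2, Eef2k and Eif3h) and none fell in both. Of those 4, only Eif3h rose in cells on every scale, and Eef2 fell in cells with total counts and on TPM (-0.12 and -0.24), opposite to its rise in tumors. The 18 were Eif1, Eif1ax, Eif2b3, the 3 eIF2 subunit genes Eif2s1, Eif2s2 and Eif2s3x, Eif3a, Eif3c, Eif3j2, Eif4a1, Eif4a3, Eif4e, Eif4enif1, Eif4g2, Eif5b, Eif6, Etf1 and Gspt1. For 9 of them (Eif3a, Eif3c, Eif3j2, Eif4a1, Eif4a3, Eif5b, Eif6, Etf1 and Gspt1) the rise in cells held on every scale. These cross counts were made over the members only. Over all genes tested, 37.8% rose and 38.3% fell in cells, and 11.9% rose and 14.9% fell in tumors. Whether opposite calls were more frequent among members than among all genes was not tested. On the lower side the largest differences were -1.41 ± 0.06 for Eif4a3 (adjusted p = 3.4e-09), -1.31 ± 0.07 for Eif5b and -1.22 ± 0.046 for Eif4a1. On the higher side they were 1.47 ± 0.19 for Eef2kmt and 0.72 ± 0.057 for Eif4g3, which fell in cells and did not pass the test in tumors. Cells and tumors differ in dose, route and time of treatment, in the cells present, in the library series and in the RNA type named in the labels, and these cannot be told apart.

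**Figure D4:**
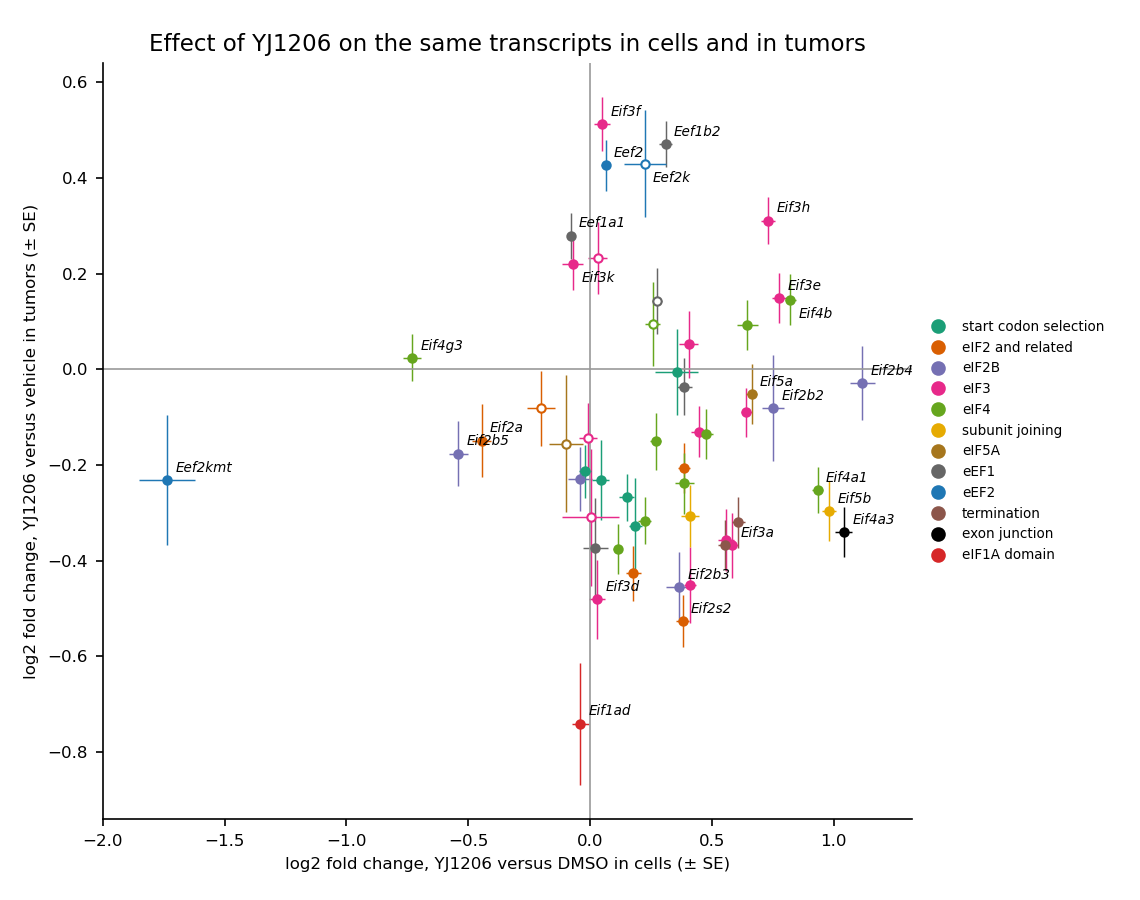
The log2 fold change of each member in cells (horizontal axis, ± SE) against that in tumors (vertical axis, ± SE), coloured by role; filled points differed between cells and tumors at an adjusted p under 0.05. Eif4a1, Eif5b and Eif4a3 lie at the lower right, while Eef1a1, Eef2 and Eif3f lie above the horizontal line near the centre.

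By TMM most members stood lower in untreated tumors than in untreated cells, though the most abundant one, Eef1a1, was higher on TPM. Between vehicle tumors and DMSO cells, 52 of 58 members were lower and 5 higher, where 36.2% and 46.7% of all genes were, and the median difference was -0.82 on the log2 scale against 0.19 for all genes. With total counts and TPM the median of all genes stood at 0.56 and 0.35, and the members split into 42 lower and 9 higher, and 39 lower and 11 higher of 59. Of all genes, 12724 of 15423 were called with total counts and 9928 of 12941 on TPM, 72.2% and 69.1% of them higher. Of the 52, 8 turned to a higher value with total counts (Eef1a1, Eef1b2, Eef2, Eef2kmt, Eif1b, Eif2d, Eif3k and Eif4b), and all of these but Eef2kmt and Eif3k did so on TPM. In TPM, Eef1a1 was 9612 ± 107 in DMSO cells and 10409 ± 37.3 in vehicle tumors, and Eef2 was 1453 ± 15.4 and 1641 ± 37.3. On the lower side Eif5a2 differed most, at 11.8, 9.96 and 11.4 TPM in DMSO cells and 2.51, 3.22 and 3.16 TPM in vehicle tumors, and Eif1ad next, at 106, 107 and 109 and 62.1, 41.9 and 54.3 TPM. Eif4g3 was higher in the tumors on every scale, at 54.5, 56.5 and 59.1 TPM in DMSO cells and 91.1, 92.9 and 94.3 TPM in vehicle tumors, as was Eef2k, at 7.01, 11.4 and 7.82 and 18.7, 13.3 and 16.2 TPM. This contrast shares its control libraries with the treatment contrasts, and it rests on tables that list different gene sets.

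Some members were read mainly in tumors. Eif2s3y, the Y-linked copy of the eIF2 γ subunit, had 0 counts in all 6 cell libraries, 73, 50 and 37 counts in the vehicle tumors and 57, 44 and 74 counts in the YJ1206 tumors, with its X-linked partner Eif2s3x at 159 to 163 and 128 to 139 TPM in the same libraries. Reads of such close copies can be shared, so the split between the 2 genes is uncertain. Eif4e1b, best known from oocytes, had 10, 7 and 11 counts in DMSO cells and 167, 193 and 116 in vehicle tumors, and Eif4e3 had 6, 0 and 1 and 84, 84 and 61. Gspt2, the paralog of Gspt1, had 0 counts in the cells and 7, 1 and 1 in vehicle and 4, 2 and 4 in YJ1206 tumors. At these counts no treatment difference in Gspt2 was detectable.

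Eef1a2, the eEF1A isoform of skeletal muscle, heart and neurons, had 1 count over all 6 cell libraries. In the vehicle tumors it had 228, 8 and 115 counts (8.75, 0.245 and 6.28 TPM) and in the YJ1206 tumors 1, 2 and 1 counts (0.0440, 0.0703 and 0.0411 TPM), and it did not pass the filter for a test. The summed TPM of 6 skeletal muscle markers moved with it, at 29.2 to 811 in the vehicle and 11.3 to 13.6 in the YJ1206 tumors. In the cells that sum was 7.75 to 12.1 with DMSO and 8.29 to 11.2 with YJ1206. Of the 6, Myh4 was at or under 3 counts in every YJ1206 tumor library, and Myl1 had 1, 5 and 2 counts there. Acta1, the actin of skeletal muscle, had 5323, 138 and 2228 counts with vehicle and 35, 18 and 23 with YJ1206, and its vehicle libraries rank as those of Eef1a2 do. Eef1a1 in the same libraries stood at 10366 to 10431 TPM, so Eef1a2 was a minor part of the eEF1A transcripts even where it was highest. The source of the Eef1a2 transcripts was not tested.

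**Figure D5:**
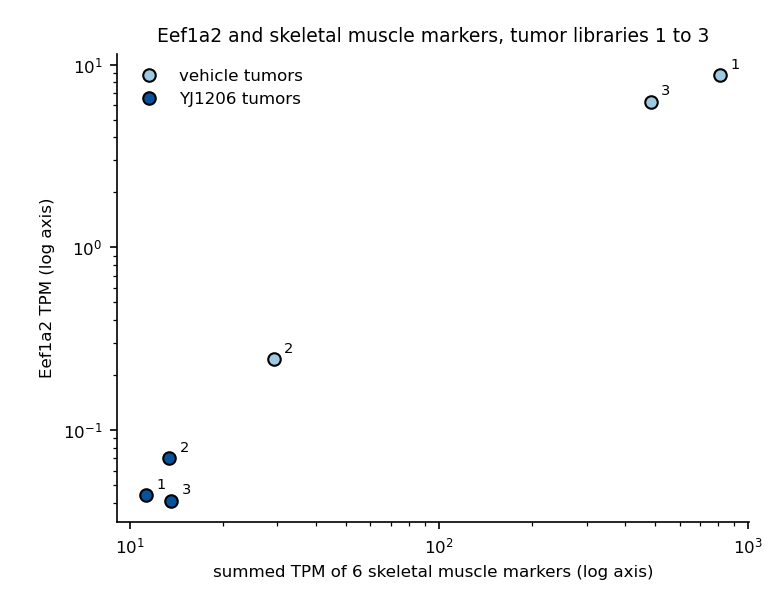
Eef1a2 TPM against the summed TPM of 6 skeletal muscle markers in the 6 tumor libraries, both on log axes, numbered by library. Vehicle libraries 1 and 3 lie far to the upper right, while vehicle library 2 and the 3 YJ1206 libraries, at most 0.245 TPM of Eef1a2, lie at the lower left.

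RefSeq promoter windows (GRCm38.p6, 250 bases before to 50 after the annotated start) were matched for 48 members. The E-box CACGTG, the motif bound by MYC and its partner MAX and the same on both strands, was in at least 1 window of 12 members (25%) and of 8.09% of the 27025 genes in the table. These were Eef2, Eef2k, Eif1b, Eif3a, Eif3f, Eif3k, Eif4a1, Eif4e, Eif4g1, Eif4h, Eif5a and Eif5a2. The windows of 6 members that carry the results above are shown 5′ to 3′ along the gene, with the motif in capitals.
Eif4a1 (minus strand, chr11:69672595-69672624, motif 189 bases before the start): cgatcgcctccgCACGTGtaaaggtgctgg
Eif4e (plus strand, chr3:138527192-138527221, 64 bases before): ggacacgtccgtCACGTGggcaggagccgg
Eif5a (minus strand, chr11:69921443-69921472, 74 bases before): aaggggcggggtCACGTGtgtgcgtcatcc
Eif3a (minus strand, chr19:60790654-60790683, 22 bases after): ccgcgagggaatCACGTGgttccttccttt
Eef2 (plus strand, chr10:81176576-81176605, 43 bases before): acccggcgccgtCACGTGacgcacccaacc
Eif3f (plus strand, chr7:108934335-108934364, 68 bases before): caagatatgattCACGTGgtataaatttag

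Eif4a1, Eif4e and Eif3a of this set rose in cells and fell in tumors (Eif4e by TMM only in cells), whereas Eef2 and Eif3f rose in tumors and Eif5a did not pass there, so the motif was found on both sides of the tumor split. In the cells 9 of the 12 members with the motif rose and none fell, and of 32 tested members without it 19 rose and 6 fell, where 37.8% and 38.3% of all genes did. In the tumors 4 of the 12 rose and 3 fell, against 2 and 15 of 33 without it, where 11.9% and 14.9% of all genes did. Whether members with and without the motif differed was not tested. With and without the motif, the median changes on the log2 scale were 0.246 and 0.221 in the cells, and -0.093 and -0.206 in the tumors. A match is a description of the window and not a binding site.

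A start with a C followed by at least 4 pyrimidines, the mark of terminal oligopyrimidine mRNAs, was found at the RefSeq start of Eif3f, Eif2s3x and Eif2c5, 3 of 48 members (6.25%), against 3.01% of genes. Eif2c5 is annotated as a lincRNA, so it is no translation factor mRNA, and it had 0 counts in the cells. The run is shown in capitals, after 10 bases before the start.
Eif3f (plus strand, chr7:108934405-108934434): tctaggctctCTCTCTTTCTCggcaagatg
Eif2s3x (minus strand, chrX:94212632-94212661): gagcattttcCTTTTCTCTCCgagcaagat

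The mRNA of Eef1a1, a textbook member of that class, does not begin with C at its RefSeq start, so starts in the table may lie some bases off those in use, and the count is no measure of the class. Eif3f rose in tumors and Eif2s3x fell there.

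Genes outside the rule that act on these factors were described from lists, by TMM only. The direction in cells depends on the scale, and genes of these lists were not followed on the others. The summed TPM of the regulators and partners was 4752 ± 28.9 (SD) in DMSO and 4714 ± 35.1 in YJ1206 cells. Of 36 regulators and partners, 13 rose and 18 fell in the cells and 6 rose and 8 fell in the tumors. These were 36.1% and 50% in the cells, where 37.8% and 38.3% of all genes rose and fell, and 16.7% and 22.2% in the tumors, against 11.9% and 14.9%. Among them Ppp1r15a, which directs the phosphatase that reactivates eIF2, rose by 2.06 on the log2 scale in cells (adjusted p = 1.7e-21) and changed by 0.13 in tumors (adjusted p = 0.62). The eIF2 kinase PERK (Eif2ak3) rose in both, by 0.70 and 0.73, while PKR (Eif2ak2) fell by 0.93 in cells and rose by 0.27 in tumors. Pdcd4, an inhibitor of the eIF4A helicase, also rose in both, by 1.69 and 0.43. Of the enzymes that modify translation factors, Dhps, which starts hypusine synthesis on eIF5A, changed by -0.92 and -0.47, and Dph1, which starts diphthamide synthesis on eEF2, by -1.14 and -0.57, falls that all passed the test. Larp1, a repressor that binds terminal oligopyrimidine mRNAs, rose by 0.89 in cells and changed by -0.12 in tumors without passing. Pabpc1, the poly(A)-binding protein that joins the 2 ends of the mRNA through eIF4G, rose by 0.38 and 0.23.

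The 20 cytosolic aminoacyl-tRNA synthetases, which charge the tRNAs that eEF1A delivers, were also described by TMM. In the cells 12 rose and 6 fell (60% and 30%, against 37.8% and 38.3% of all genes). In the tumors 1 rose and 16 fell (5% and 80%, against 11.9% and 14.9% of all genes). Their medians were 0.24 and -0.31 on the log2 scale. Their summed TPM was 2594 ± 32.0 (SD) in DMSO and 2736 ± 13.9 in YJ1206 cells. In vehicle and YJ1206 tumors it was 2335 ± 174 and 1812 ± 22.1. Gars, for glycine, rose by 1.02 in cells and fell by 0.68 in tumors. Of 9 mitochondrial translation factors, 2 rose and 5 fell in the cells (22.2% and 55.6%, against 37.8% and 38.3% of all genes) and 2 fell in the tumors (22.2%, against 14.9%). Tufm, the mitochondrial counterpart of eEF1A, rose by 1.07 in cells and Mtif2, that of eIF5B, fell by 1.81, against -0.10 (not past the test) and -0.41 in tumors.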

How the data were processed

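RNA-seq libraries of Myc-CaP cells (6) and Myc-CaP tumors (6) were read as gene tables. The authors deposited estimated counts and TPM per gene, and the submitters' processing notes name kallisto and GRCm38 (the version and annotation are not given in the sources used here). The TPM, which the authors scaled for transcript length, sum to 1000000 per library up to rounding. Rounding turned the deposited estimated counts into integers for testing. The cell labels name polyA RNA and the tumor labels total RNA, and the library protocol removes ribosomal RNA with probes, so levels in cells and tumors may differ for that reason. kallisto shares reads among similar transcripts, which makes near-identical copies uncertain.

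Members and lists were chosen with earlier results of these data known, and the TPM ratios after values were seen. Some epithelial marker genes are not reported here. Groups came from the sample labels. Library totals ranged from 13936902 to 26928365 counts, and floors at 3 counts cover counting error only. Genes passing filterByExpr were tested with edgeR 4.0.16 (TMM, quasi-likelihood test, two-sided, Benjamini-Hochberg adjustment over all genes tested, threshold 0.05) in R 4.3.3, within cells, within tumors, and over 12 libraries for the difference of effects and for vehicle tumors against DMSO cells. CPM are TMM-scaled within an experiment. The steps were tested on simulated data. Alternatives were DESeq2's size factors, total counts, no low-count filter (at least 1 count in any library), DESeq2 1.42.0, limma 3.58.1 on log2(TPM + 1) or log2(TPM + 0.1) with a mean TPM of at least 1, single libraries left out, the replicate number as a block, tumor libraries 1 and 2 only, and 1 fit over all 12 libraries.

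Values in every library were given for the 4 largest increases and 4 largest decreases per experiment (adjusted p under 0.05, at least 5 CPM, no overlap), the genes of paralog pairs with at least 1 CPM, the 6 members of highest TPM and both release factors. Eif4b, Eif3e, Eif2b2, Eif4e1b and Gspt2 were added after their values were seen. Promoters came from RefSeq (GRCm38.p6), gene spans from GENCODE vM21, in which 39867 of 40077 cell and 34326 of 34508 tumor identifiers were found.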

Additional observations from a re-analysis of the deposited data

Results flagged for a closer look

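The effect of YJ1206 differed between tumors and cells for 47 members by the test of the difference itself (edgeR, change in tumors minus change in cells, adjusted p under 0.05). Of all 15423 genes tested, 26% were lower and 20.8% higher by that test. Among the 47 members, 19 had passed the test in opposite directions in the 2 experiments, a count that was not made over all genes. Eef1a1, the main elongation factor, fell in cells and rose in tumors, with a difference of 0.33 on the log2 scale. The other 18 rose in cells by TMM and fell in tumors, with differences below 0.

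Among the cap, helicase and exon junction factors the differences were -1.22 for Eif4a1, -1.41 for Eif4a3, -0.57 for Eif4e, -0.66 for Eif4enif1 and -0.52 for Eif4g2. For eIF2 and eIF2B they were -0.64 for Eif2s1, -0.94 for Eif2s2, -0.62 for Eif2s3x and -0.85 for Eif2b3. For eIF3 they were -0.98 for Eif3a, -0.89 for Eif3c and -0.95 for Eif3j2, whose reads can be shared with Eif3j1. Start codon, joining and release factors differed by -0.55 (Eif1), -0.45 (Eif1ax), -1.31 (Eif5b), -0.75 (Eif6), -0.96 (Etf1) and -0.95 (Gspt1). Dose, duration, material and library series change together between the experiments, and their parts cannot be told apart.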

How the results depend on the processing

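The number of members called stayed within 1.5 times the reported one in every alternative for the cells (40 to 48 against 43), for the difference between tumors and cells (40 to 50 against 47) and for vehicle tumors against DMSO cells (50 to 59 against 57). In the tumors it ranged from 29 to 39 against 31 over the alternatives that kept all libraries, fell to 0 with tumor libraries 1 and 2 only, and ranged from 18 to 33 with single libraries left out. Leaving out single libraries gave 42 to 44 in the cells, 44 to 50 for the difference and 57 to 59 for the untreated contrast. The fit on libraries 1 and 2 has fewer samples. Members at a few counts per library are limited by depth.

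Among the members with values in every library, some changes in cells turned sign under another scale, where the median of all genes was lower and single genes moved by differing amounts. On log2(TPM + 1) these were Eef1b2 (-0.0088), Eef1g (-0.038), Eef2 (-0.24), Eif1 (-0.14), Eif1a (-0.21), Eif1ax (-0.15), Eif2b3 (-0.22), Eif3d (-0.26), Eif3f (-0.26), Eif3j1 (-0.23), Eif4e (-0.11), Eif4g1 (-0.032) and Eif4g2 (-0.19). On log2(TPM + 0.1) the values were the same to 2 digits except for Eif2b3 (-0.23) and Eif3j1 (-0.28). With total counts, Eef2 (-0.12), Eif1 (-0.00078), Eif1a (-0.14), Eif1ax (-0.036), Eif3d (-0.16), Eif3f (-0.14), Eif3j1 (-0.18) and Eif4g2 (-0.073) turned. Eif3j1, which did not pass the test, also turned without the low-count filter (-0.013), in the fit over 12 libraries (-0.011) and with single libraries left out (-0.094 to 0.11). In the tumors only values that had not passed the test turned: Eif2s3y with libraries 1 and 2 (-0.026), Eif4g3 on TPM (-0.046 with either pseudocount) and in the fit over 12 libraries (-0.022), and, with single libraries left out, Eif1b (-0.060 to 0.026) and Eif5a (-0.10 to 0.0018). The cause of these turns in single genes was not tested. Of 34 such members in the cells and 36 in the tumors, 33 and 35 kept direction and side of the threshold with DESeq2, and all of them with DESeq2's size factors.

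The replicate number as a block gave 43 called members in the cells, 29 in the tumors, 47 for the difference and 57 for the untreated contrast. No pairing by number was seen in the expression values: the correlation of deviations from the group means was 0.0014 to 0.049 for equal numbers in the cells and 0.0035 to 0.0059 in the tumors. With 3 libraries per group, such correlations cannot show that cultures or animals were unpaired, and the labels do not say. In neither experiment did every library correlate best with its own number. The block changed the call of 1 member with values in every library, Eif4e3 in the tumors (adjusted p = 0.067).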

Other observations

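The ratio of 2 members within a library does not depend on the library's scaling. The TPM ratio of Eef2 to Eif2s2, the translocase against the β subunit of eIF2, was 5.71, 6.22 and 6.08 in the DMSO libraries and 4.83, 4.71 and 4.92 in YJ1206 cells. In the tumors it was 10.1, 11.6 and 10.4 with vehicle and 20.7, 19.9 and 20.9 with YJ1206. The groups lay apart in both experiments, lower with YJ1206 in the cells and higher in the tumors. The ratio of Eif2b2 to Eif2b5 was 0.761, 0.738 and 0.701 and 1.88, 1.74 and 1.88 in DMSO and YJ1206 cells, against 0.779, 0.881 and 0.800 and 0.933, 0.886 and 0.898 in vehicle and YJ1206 tumors. These pairs were chosen after their values were seen, and no test was made on them.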
